A study of Mus musculus with 6 samples.

Results

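The genes described here make, move, remove or sense sphingosine 1-phosphate (S1P) and lysophosphatidic acid (LPA), and they were chosen by name as 10 of the 24402 loci in the authors' table. Each of the 10 symbols matched 1 locus, and no locus carried a second symbol. The S1P receptor genes *S1pr1*, *S1pr2* and *S1pr3*, the sphingosine kinase genes *Sphk1* and *Sphk2*, the genes *Sgpl1*, *Sgpp1* and *Spns2* for breakdown and export, and the LPA receptor genes *Lpar1* and *Lpar4* make up the set. Whole lungs were taken at 12.5 dpc from wild-type C57BL/6 mouse embryos (control, 3 libraries) and from littermates of genotype Yap-flox/flox; Shh-Cre/+ (*Yap* mutant, 3 libraries). In the mutants, Cre recombinase made from the *Shh* locus deletes *Yap* in the epithelium, while the mesenchyme keeps it. The mutants also carry Cre in 1 of their *Shh* alleles, and the control label names no Cre, so the effects of these alleles cannot be told apart. The study asked which genes depend on epithelial YAP, the transcriptional coactivator held in check by the Hippo pathway, during lung branching.

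S1P is formed inside the cell when a sphingosine kinase phosphorylates sphingosine, which itself comes from ceramide. It is carried out of the cell by transporters such as SPNS2, returned to sphingosine by lipid phosphatases, or split irreversibly by S1P lyase. LPA is made mainly outside the cell by the secreted enzyme autotaxin, encoded by *Enpp2*. Both lipids act on receptors of the cell surface that couple to G proteins, and S1PR2 and several LPA receptors reach RhoA, ROCK and the actomyosin cytoskeleton through G proteins and RhoGEFs. S1PR1 is known for its role in endothelium.

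The tables hold 1 value per gene and genotype, in FPKM (a fragment count scaled by transcript length and by the fragments mapped), which the authors formed over the libraries of that genotype. No spread between libraries, depth per library or test across libraries could be had from these values, so every difference given here is a description of these pools of libraries. Differences are written as the log2 ratio of *Yap* mutant over control after 0.1 FPKM was added to each value. A locus was counted as past the fold when the genotypes differed by at least 1.5-fold and their mean was at least 1 FPKM. Over all loci with that mean, 12716 in number, 4.44% were higher and 3.3% were lower by 1.5-fold, 7.75% in all. Their median log2 ratio was -0.01, and 90% of them lay between the 5th percentile of -0.42 and the 95th of 0.53.

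*Yap1* itself had 76.1 FPKM in controls and 65.6 FPKM in mutants, a log2 ratio of -0.21. Whole-lung RNA includes *Yap* of the mesenchyme, so this value does not show the deletion by itself. *Shh*, which the Cre allele interrupts, had 15.6 FPKM in controls and 2.31 FPKM in mutants (log2 ratio -2.71). Some lists of cell type markers also differed between the pools. In the epithelium list 12 of 17 loci were lower (median log2 ratio -0.43) and in the smooth muscle list 5 of 6 were lower (median -1.06), while all 7 cardiac muscle loci were past the fold and higher (median 2.96). No locus of these lists was at 0 in either genotype. In bulk RNA of this kind, more or fewer cells of a type cannot be told apart from more or less RNA per cell. The source of the cardiac transcripts, and its part in the S1P and LPA values, was not tested. Y-linked transcripts also set the pools apart, since 4 genes had at most 0.0163 FPKM in controls and between 4.61 and 16.5 FPKM in mutants.

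The sequences before the start sites of 4 of the genes are shown because these genes carry the comparisons that follow. *S1pr2* is the receptor whose promoter the study examined for YAP and TEAD, *S1pr3* is the S1P receptor with the highest level, and *Sgpp1* and *Sphk1* had the largest positive and negative log2 ratios. Each line gives the 250 bases before a RefSeq start site on GRCm38.p6, written 5′ to 3′ on the strand of the gene. Capitals mark matches, on either strand, to the TEAD site GGAATG, the GC box GGGCGG, the CCAAT box CCAAT or the TATA box TATAAA, none of which overlapped another here.

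*S1pr2*, chr9:20976794-20977043, minus strand: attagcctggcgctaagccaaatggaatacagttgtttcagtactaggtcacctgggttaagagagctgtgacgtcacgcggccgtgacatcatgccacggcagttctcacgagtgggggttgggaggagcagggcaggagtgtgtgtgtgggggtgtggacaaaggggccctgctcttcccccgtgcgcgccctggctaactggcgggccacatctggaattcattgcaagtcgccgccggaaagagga
*S1pr3*, chr13:51408368-51408617, plus strand: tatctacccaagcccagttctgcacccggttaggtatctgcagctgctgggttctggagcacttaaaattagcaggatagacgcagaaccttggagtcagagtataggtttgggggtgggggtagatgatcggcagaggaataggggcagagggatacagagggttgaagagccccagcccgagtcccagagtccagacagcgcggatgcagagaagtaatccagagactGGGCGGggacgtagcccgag
*Sgpp1*, chr12:75735730-75735979, minus strand: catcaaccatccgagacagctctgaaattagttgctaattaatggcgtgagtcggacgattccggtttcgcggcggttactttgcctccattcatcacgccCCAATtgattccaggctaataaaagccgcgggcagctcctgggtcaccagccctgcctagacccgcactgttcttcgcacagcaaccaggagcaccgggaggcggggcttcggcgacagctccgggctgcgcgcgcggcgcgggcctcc
*Sphk1*, chr11:116530850-116531099, plus strand: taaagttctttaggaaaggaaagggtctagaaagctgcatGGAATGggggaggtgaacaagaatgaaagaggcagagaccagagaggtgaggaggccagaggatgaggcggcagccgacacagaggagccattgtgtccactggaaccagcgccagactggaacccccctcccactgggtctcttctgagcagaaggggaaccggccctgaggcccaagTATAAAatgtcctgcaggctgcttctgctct

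The S1P receptor *S1pr2* had none of the 4 motifs in this window. The absence of these letters concerns only the 250 bases printed. The study searched a longer stretch and reports a conserved TEAD site in the *S1pr2* promoter. It also reports YAP and TEAD at that promoter by chromatin immunoprecipitation of wild-type lungs at a later stage, and lower *S1pr2* expression without YAP. Among the 9 genes matched in the RefSeq table (all but *S1pr1*), only *Sphk1* held a TEAD site, which begins 210 bases before its start, in 1 of its 5 windows. Of all 27025 genes with windows of this length 14.4% held the same letters in at least 1, and of all 32851 windows 12.6% did. The *Sphk1* window also held a TATA box 31 bases before the start, a motif found in 12.4% of all windows. A GC box stood 20 bases before the start of *S1pr3*, and such a box was present in 7 of the 16 windows of these genes and in 32.7% of all windows. *Sgpp1* held a CCAAT box 149 bases before its start, and the box was in 7 of the 16 windows and in 33.8% of all. These matches describe letters and are not binding sites.

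By level, the 10 genes spanned from under 1 to about 71 FPKM. In control lungs the order was *S1pr3*, *Sgpl1*, *S1pr2*, *Sphk2*, *Lpar1*, *Lpar4*, *Sgpp1*, *S1pr1*, *Spns2* and *Sphk1*. The order was the same in *Yap* mutant lungs except that *Sgpp1*, seventh in controls, stood before *Lpar4*. *Sphk2* and *Lpar1* were nearly level with each other in control lungs, at 13.96 and 13.93 FPKM, as were *Lpar4* and *Sgpp1*, at 9.12 and 9.03 FPKM. Whether neighbours in this order differ beyond their spread cannot be read from 1 value per genotype. The plot of levels shows the pairs of values.

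**Figure D1:**
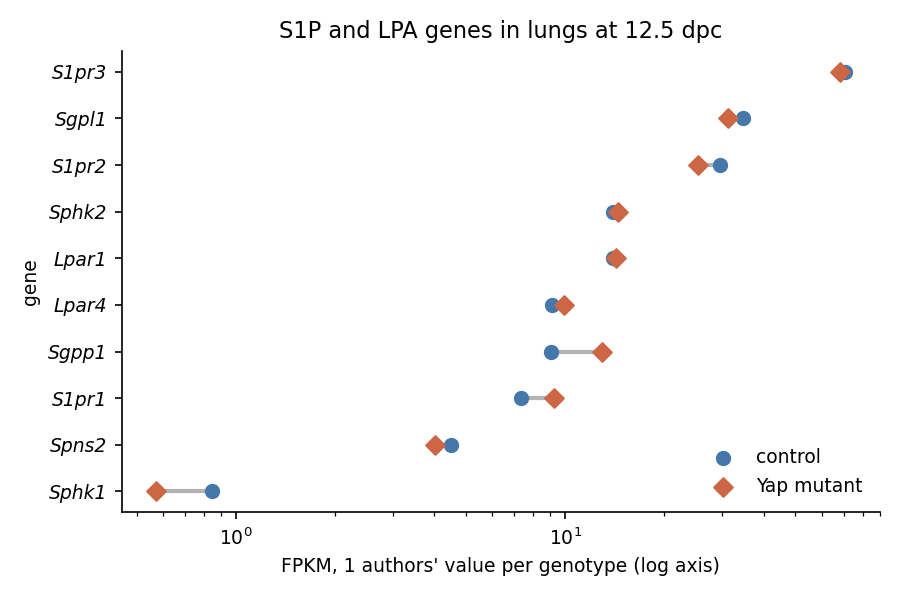
FPKM of the 10 S1P and LPA genes (vertical axis) in control (circles) and *Yap* mutant (diamonds) lungs at 12.5 dpc, with FPKM on a log axis and 1 authors' value per genotype, so there are no error bars. The widest gaps are those of *Sphk1* (0.847 and 0.573 FPKM) and *Sgpp1* (9.03 and 13.0 FPKM), while *S1pr3* is highest in both genotypes.

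None of the 10 genes (0) was past 1.5-fold, beside 7.75% of all loci averaging at least 1 FPKM. Of the 10, 9 had that mean and *Sphk1* did not. The median log2 ratio of the 9 was 0.03, against -0.01 over all such loci. The values were lower in *Yap* mutant lungs for 5 of the 10 (*S1pr2*, *S1pr3*, *Sphk1*, *Sgpl1* and *Spns2*) and higher for the other 5, and of the loci averaging at least 1 FPKM, 4 of these 9 genes and 51.8% of all 12716 were lower. At the smaller limit of 0.32 on the log2 scale, 2 of the 9 genes averaging at least 1 FPKM were higher (*Sgpp1* and *S1pr1*) and 0 were lower. Of all loci with that mean, 9.63% were higher and 6.8% lower. *Sphk1*, at -0.49, was beyond this limit but below that mean, so it was not counted. *S1pr1* fell short of this limit with 1 FPKM added (log2 ratio 0.30). The signs were the same after rescaling both genotypes to equal sums and after centring on the median of all loci, but 3 changed relative to the median of the endothelial markers and 4 relative to that of the epithelial markers.

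**Figure D2:**
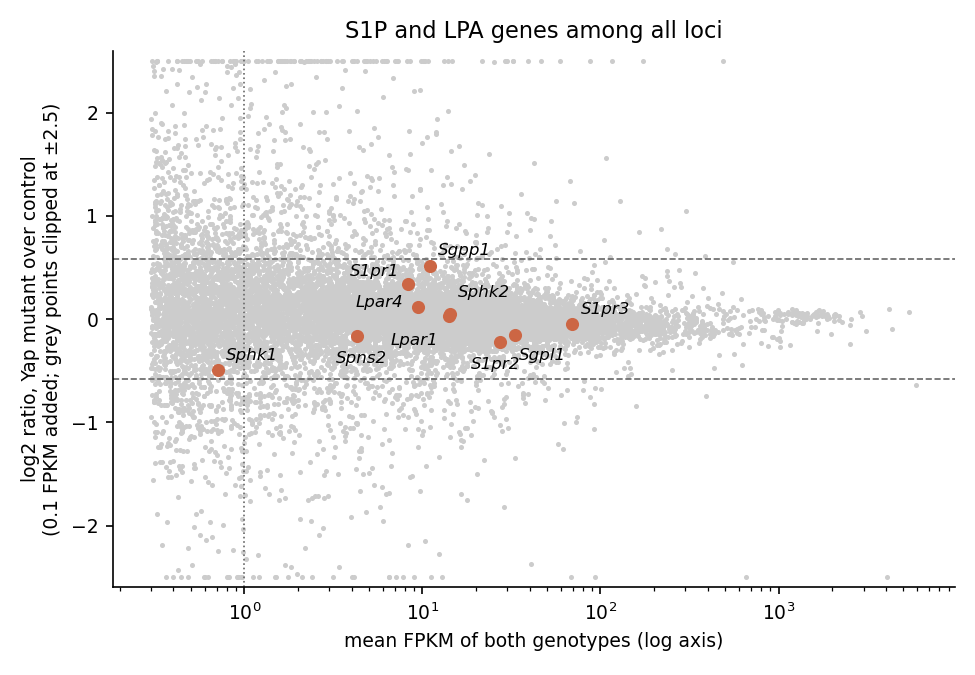
Log2 ratio of *Yap* mutant over control (vertical axis, 0.1 FPKM added) against the mean FPKM of both genotypes (log axis) for all loci averaging at least 0.3 FPKM (grey) and for the 10 S1P and LPA genes (named). Dashed lines mark 1.5-fold and the dotted line marks 1 FPKM; grey points beyond the axis are drawn at its edge, and all 10 genes lie between the dashed lines, from -0.49 (*Sphk1*) to 0.52 (*Sgpp1*).

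Among the receptors of S1P, *S1pr3* was the main transcript. *S1pr3*, on chromosome 13 from 51408535 to 51422797 on the plus strand, encodes a receptor that couples to several classes of G protein. Its value was 70.8 FPKM in controls and 68.4 FPKM in mutants, a log2 ratio of -0.05. In control lungs 95.2% of all loci had a lower FPKM than *S1pr3*. A lincRNA gene, *Gm32834*, overlaps the locus on the opposite strand, and whether the authors counted fragments by strand is not given in the sources used here.

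*S1pr2*, on chromosome 9 from 20965952 to 20976793 on the minus strand, encodes the S1P receptor most closely tied to RhoA. It stood at 29.4 FPKM in controls and 25.2 FPKM in mutants, 0.857 times the control value (log2 ratio -0.22). Of all loci averaging at least 1 FPKM, 10.8% had a ratio as low or lower. The 17 epithelium loci ran from -2.71 (*Shh*) to 0.97 (*Sftpc*, a surfactant protein gene) around their median of -0.43, with 8 lower and 2 higher by 1.5-fold. Within that list 9 loci were lower by at least 0.32 on the log2 scale and so lay below *S1pr2*, among them *Epcam* at -0.43 and *Krt18* at -0.80. The others lay above *S1pr2*, among them *Cdh1*, the E-cadherin gene, at -0.20, *Spint2* at -0.08 and *Cldn7* at 0.08. The part of epithelial cell numbers in the *S1pr2* difference was not tested. Like *S1pr1* and *S1pr3*, *S1pr2* has its whole coding sequence in 1 of 2 exons in the GENCODE transcript with the longest coding sequence, 1056 bases for *S1pr2*.

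*S1pr1*, on chromosome 3 from 115710433 to 115715055 on the minus strand, went the other way. It had 7.31 FPKM in controls and 9.26 FPKM in mutants, 1.27 times the control value (log2 ratio 0.34). Of all loci averaging at least 1 FPKM, 9.08% had a ratio as high or higher. S1PR1 signals through inhibitory G proteins and keeps endothelial junctions tight. Of 15 endothelial markers, 12 were higher and 3 lower in *Yap* mutant lungs, with log2 ratios between -0.18 and 0.25 and a median of 0.14. Their summed level was 382.8 FPKM in controls and 409.0 FPKM in mutants, and none was at 0. Relative to the median of these 15 markers, *S1pr1* was at 0.20. The part of endothelial cell numbers in the *S1pr1* value was not tested.

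Each receptor's share of the family follows from these levels. The 5 S1P receptor genes summed to 108.0 FPKM in controls and 103.4 FPKM in mutants. *S1pr3* made up 65.6% and 66.1% of this sum, *S1pr2* 27.2% and 24.4%, and *S1pr1* 6.77% and 8.96%. *S1pr4* and *S1pr5*, receptors known from lymphoid cells and from natural killer cells and oligodendrocytes, had 0.387 and 0.0742 FPKM in controls and 0.4999 and 0.0252 FPKM in mutants. The ratio of *S1pr2* to *S1pr1* was 4.02 in control and 2.72 in *Yap* mutant lungs.

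**Figure D3:**
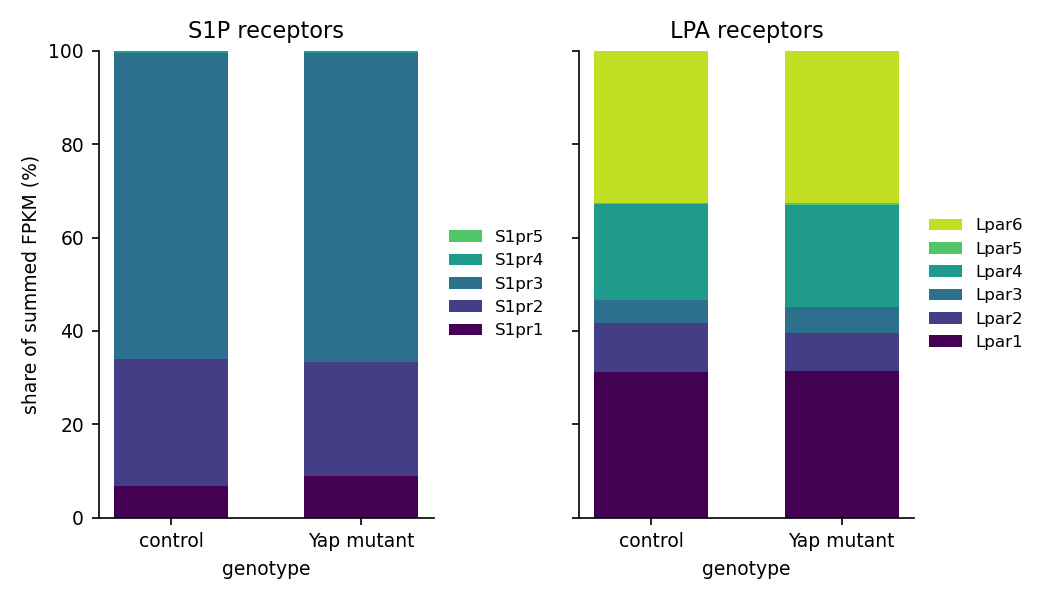
Share of each receptor in the summed FPKM of its family (vertical axis, percent) in control and *Yap* mutant lungs, for the 5 S1P receptors (left) and the 6 LPA receptors (right). The bars rest on 1 authors' value per genotype; *S1pr2* takes 27.2% of the S1P receptor bar in control and 24.4% in *Yap* mutant lungs, and *Lpar1* takes 31.3% of the LPA receptor bar in both.

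Both LPA receptor genes of the set were slightly higher in *Yap* mutant lungs, with log2 ratios of at most 0.12. *Lpar1*, on chromosome 4 from 58435252 to 58553990 on the minus strand, encodes the receptor through which LPA acts on many mesenchymal cells. It had 13.9 FPKM in controls and 14.2 FPKM in mutants (log2 ratio 0.03). *Lpar4*, on chromosome X from 106920625 to 106933899 on the plus strand, belongs to the other branch of LPA receptors, which is related to nucleotide receptors. Its values were 9.12 and 9.89 FPKM, a log2 ratio of 0.12. Because the pools differed in Y-linked transcripts, the X-linked position of *Lpar4* was looked at. The X-linked *Xist* had 97.0 FPKM in controls and 50.4 FPKM in mutants. The median log2 ratio of 444 X-linked loci averaging at least 1 FPKM was 0.00. A median over many loci cannot settle the matter for *Lpar4* itself. The part of sex in the values of *Lpar4* and of the other genes described was not tested.

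*Lpar6*, of the same branch as *Lpar4*, had 14.5 and 14.7 FPKM and was the highest of the 6 in both genotypes. *Lpar2* had 4.58 FPKM in controls and 3.74 FPKM in mutants (log2 ratio -0.28). *Lpar3* had 2.21 and 2.53 FPKM, and its *Yap* mutant value is 1 of 6 in the table printed with more than the usual 6 significant digits, the reason for which is not given in the sources used here. *Lpar5* had under 0.3 FPKM in both. The 6 genes summed to 44.5 FPKM in controls and 45.4 FPKM in mutants, of which *Lpar6* gave 32.6% and 32.5%, *Lpar1* 31.3% and 31.3%, and *Lpar4* 20.5% and 21.8%.

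For the enzymes that make S1P, *Sphk2* had the higher value in both genotypes. *Sphk2*, on chromosome 7 from 45705247 to 45718002 on the minus strand, encodes the kinase found largely in nuclei and mitochondria. Its values were 13.96 FPKM in controls and 14.5 FPKM in mutants (log2 ratio 0.05). The genes *Dbp* and *Rpl18*, a ribosomal protein gene, overlap the *Sphk2* locus on the opposite strand, and without strand their reads could not be told apart from those of *Sphk2*, so its level is uncertain. *Sphk1*, on chromosome 11 from 116531167 to 116536675 on the plus strand, encodes the mainly cytoplasmic kinase that growth factors activate. It had 0.847 FPKM in controls and 0.573 FPKM in mutants, which is 0.677 times the control value (log2 ratio -0.49). At this level the log2 ratio moved to -0.23 when 1 FPKM was added in place of 0.1 and to -0.56 with nothing added. An antisense gene, *Gm29292*, overlaps *Sphk1*.

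The genes that remove S1P included the member with the largest positive difference. *Sgpp1*, on chromosome 12 from 75714248 to 75735729 on the minus strand, encodes S1P phosphatase of the endoplasmic reticulum, which returns S1P to sphingosine. It had 9.03 FPKM in controls and 13.0 FPKM in mutants, 1.44 times the control value (log2 ratio 0.52). Of all loci averaging at least 1 FPKM, 5.15% had a ratio as high or higher. No other gene overlaps this locus in GENCODE, and the log2 ratio lay between 0.48 and 0.56 over the pseudocounts and scalings by all loci. It was 0.38 relative to the median of the endothelial markers and 0.95 relative to that of the epithelial markers.

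*Sgpl1*, on chromosome 10 from 61098642 to 61147669 on the minus strand, encodes S1P lyase, which ends the pathway by splitting S1P. It was the second highest of the 10 genes, with 34.7 FPKM in controls and 31.3 FPKM in mutants (log2 ratio -0.15). The lyase transcript was 3.85 times that of the phosphatase *Sgpp1* in control lungs and 2.41 times in *Yap* mutant lungs. *Spns2*, on chromosome 11 from 72451638 to 72489920 on the minus strand, encodes the S1P exporter of endothelium. It had 4.51 FPKM in controls and 4.03 FPKM in mutants (log2 ratio -0.16). Of 15 endothelial markers 12 were higher in the mutants, up to *Tie1* at 0.25, and the median of the 15 was 0.14. The 3 lower ones were *Ramp2* at -0.18, *Emcn* at -0.17 and *Sox17* at -0.11. The part of endothelial cell numbers in the *Spns2* value was not tested. The end of the *Spns2* locus overlaps *Mybbp1a* on the opposite strand.

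Beyond these genes, 68 further loci of the pathway were found for 69 listed symbols, and 54 of them averaged at least 1 FPKM. Of the 54, 1 was higher and 1 was lower by 1.5-fold, which is 3.70% beside 7.75% of all loci. Their median log2 ratio was 0.00. Both loci past the fold belong to ceramide metabolism, where 14 of 28 were higher and 14 lower. The share past the fold in that list was 7.14%, beside 7.75% of all loci averaging at least 1 FPKM. *Acer2*, which encodes a Golgi ceramidase that releases sphingosine, had 2.05 FPKM in controls and 3.77 FPKM in mutants (log2 ratio 0.85). *Sptssb*, a small subunit of the serine palmitoyltransferase that starts sphingolipid synthesis, had 1.88 and 0.830 FPKM (log2 ratio -1.09).

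Among LPA enzymes, lipid phosphatases and S1P carriers, 7 of 13 loci averaged at least 1 FPKM, 3 of them higher and 4 lower, and 0 past 1.5-fold, beside 7.75% of all loci with that average. *Enpp2*, the autotaxin gene, came nearest with 7.20 FPKM in controls and 9.94 FPKM in mutants (log2 ratio 0.46). Of the phosphatases that remove the phosphate from LPA and S1P at the cell surface, *Plpp1* had 19.0 and 15.4 FPKM (log2 ratio -0.30), *Plpp3* had 25.5 and 22.7 FPKM (log2 ratio -0.17), and *Plpp2* had 13.5 and 13.98 FPKM (log2 ratio 0.05). *Plpp5* shares its locus with a second symbol, so its log2 ratio of -0.04 is uncertain, and *Acp6* and *Aldh3a2* had log2 ratios of 0.04 and -0.03. *Sgpp2*, the second S1P phosphatase, had 0.242 and 0.327 FPKM, so *Sgpp1* gave nearly all phosphatase transcript of this pair. The S1P exporter of red cells *Mfsd2b* had 0.776 and 0.901 FPKM, and *Pla1a*, *Liph*, *Plpp4* and *Apom* were each below 0.4 FPKM.

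**Figure D4:**
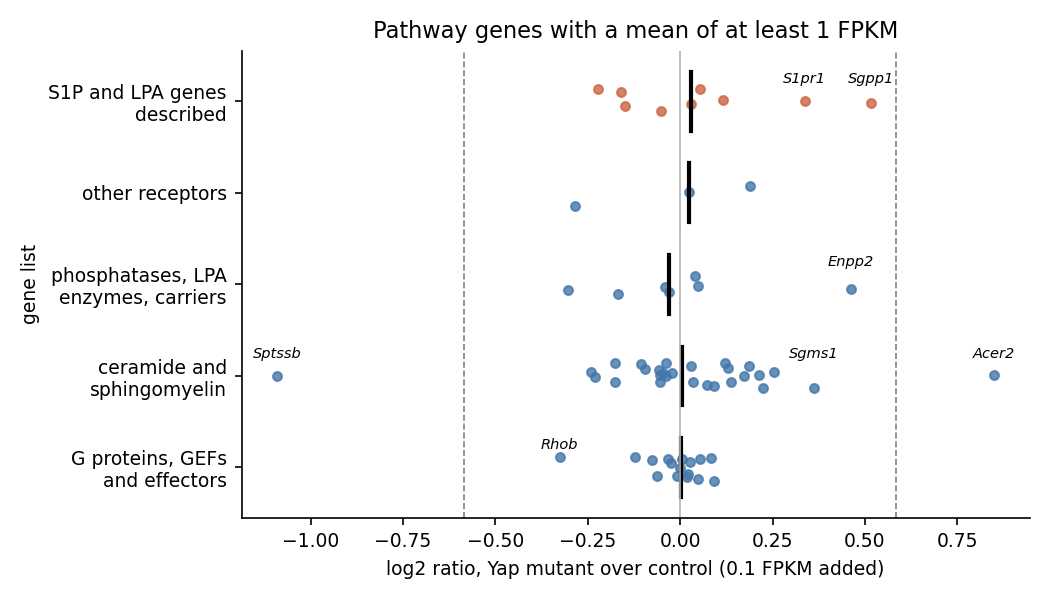
Log2 ratio of *Yap* mutant over control (horizontal axis, 0.1 FPKM added) for loci averaging at least 1 FPKM in 5 gene lists (vertical axis); points are loci, spread vertically only to separate them, black bars are list medians and dashed lines mark 1.5-fold. Only *Acer2* (0.85) and *Sptssb* (-1.09) lie beyond the dashed lines.

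All 16 G protein, RhoGEF and effector loci averaged at least 1 FPKM, 9 were higher, 7 were lower and 0 were past 1.5-fold, beside 7.75% of all loci with that average, with a median log2 ratio of 0.00. Only *Rhob* passed 0.32 on the log2 scale among them, with 53.6 FPKM in controls and 42.7 FPKM in mutants (log2 ratio -0.33). The G protein genes *Gna12* and *Gna13*, through which S1PR2 reaches RhoA, had log2 ratios of -0.06 and 0.05. The RhoGEF genes that these G proteins activate, *Arhgef1*, *Arhgef11* and *Arhgef12*, had log2 ratios of -0.01, 0.05 and 0.08.

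**Figure D5:**
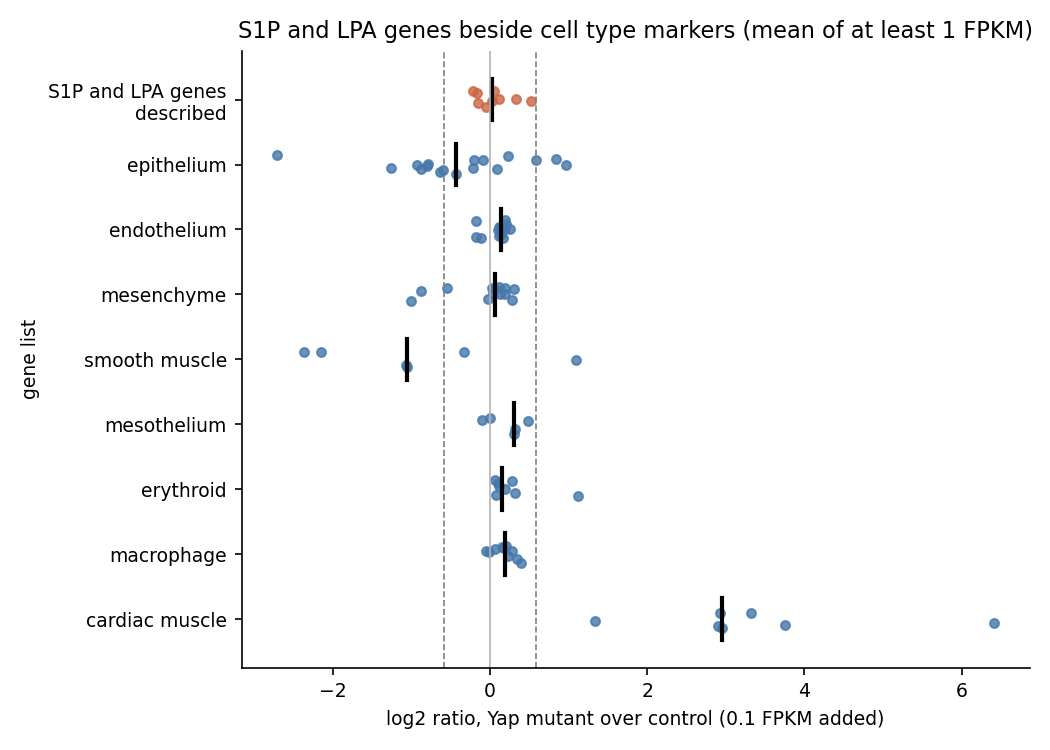
Log2 ratio of *Yap* mutant over control (horizontal axis, 0.1 FPKM added) for the S1P and LPA genes described and for 8 lists of cell type markers (vertical axis), all averaging at least 1 FPKM; points are loci, black bars are list medians and dashed lines mark 1.5-fold. The S1P and LPA genes lie between -0.22 and 0.52, while medians range from -1.06 for smooth muscle to 2.96 for cardiac muscle.

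Mesenchymal markers, 13 loci with the *Tcf21* symbol at 2 of them, had a median log2 ratio of 0.06, and 9 were higher and 4 lower. Of these loci 2 were lower by 1.5-fold, which is 15.4% beside 3.3% of all loci averaging at least 1 FPKM. The 2 are *Foxf1* and 1 of 2 *Tcf21* entries with the same coordinates, so these counts hold *Tcf21* more than once. That entry had 3.70 FPKM in controls and 1.96 FPKM in mutants. The *Tcf21* entry with 57.4 and 39.2 FPKM was not past the fold. The lung mesenchyme factor gene *Foxf1* was at -1.003, and the *Tcf21* loci were at -0.55 and -0.88. The list summed to 1673 FPKM in controls and 1678 FPKM in mutants, most of it from *Col1a1*, *Col1a2*, *Col3a1* and *Vim*, whose log2 ratios lay between -0.02 and 0.11. Of 8 erythroid loci all 8 were higher (median 0.15), of 10 macrophage loci 8 were higher (median 0.19), and of 5 mesothelial loci 4 were higher (median 0.31). Among the erythroid loci more than 1 entry carries the symbols *Hba-a1* and *Hba-a2*, and 9 of 13 listed erythroid symbols were found. The parts of these marker lists in the values of the S1P and LPA genes were not tested.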

How the data were processed

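RNA from whole lungs of 2 genotypes was made into stranded paired-end libraries, 3 per genotype. The submitters' processing notes name TopHat, Cuffdiff and mm10, with versions and annotation not given in the sources used here. The 2 deposited tables give the authors' FPKM, 1 value per genotype. The unit was read from the Cuffdiff layout and is not in the file headers. The deposited columns of log2 fold change and p-value are the authors' own comparison and were not used, so no test was made. The second table, of 2395 loci, is named by the authors as differentially expressed genes, by a rule not given in the sources used here. It served only to compare values, and 25 loci differed by over 1% between the tables. Of the genes described it lists 3 (*S1pr1*, *S1pr2* and *Sgpp1*), and none (0) of these differed.

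Log2 ratios were computed with Python 3.11.15, numpy 2.4.6 and pandas 2.3.3, with 0.1 FPKM added, and figures with matplotlib 3.10.9. Counting was tested on simulated data. Locus starts count from 0, and 1 was added. GENCODE M21 and RefSeq (GRCm38.p6, the same build as mm10) gave annotation and promoter sequence. Markers and pathway lists, and the genes described, were chosen with earlier results of these data known. Genes were named when described here, when past 1.5-fold or when in the receptor or enzyme lists. *Rhob*, *Xist*, the epithelial, endothelial and mesenchymal markers, the other G protein and RhoGEF genes and *Dbp* and *Rpl18* were named after their values or positions were seen. Older symbols (*Ppap2a*, *Ppap2c*, *Ppap2b*, *Ppapdc1a* and *Ppapdc1b* for *Plpp1* to *Plpp5* in that order) were matched. No column belonged to other samples. Alternatives were other pseudocounts, filters, folds and scalings. Protein sequences were not used here.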

Additional observations from a re-analysis of the deposited data

How the results depend on the processing

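No paired analysis was possible because the tables hold 1 value per genotype and none per library, and for the same reason no library could be left out. The count of the 10 genes past 1.5-fold was 0 under the other pseudocounts and filters, both scalings by all loci and a 2-fold limit, and was 2 at the smaller limit (0.32 on the log2 scale). For the other pathway genes the count was 2, and it was 4 with no filter on low values, 0 when loci had to average at least 5 FPKM, 5 at the smaller limit and 1 at 2-fold, since each setting tests other loci or another limit. With 5 genes lower and a median log2 ratio of 0.03, the set kept 5 lower genes and a median between 0.03 and 0.07 under each pseudocount and scaling by all loci. Relative to the median of the endothelium list 3 of the 10 genes changed sign (*Sphk2*, *Lpar1* and *Lpar4*), and relative to that of the epithelium list 4 did (*S1pr2*, now at 0.21, *S1pr3*, *Sgpl1* and *Spns2*). Counts under these 2 scalings were added after seeing the data. By the endothelium median 8 genes were lower, the median of the set turned to -0.11, 0 were past 1.5-fold among those averaging at least 1 FPKM, and *Sphk1*, below that average, was at -0.63. By the epithelium median, that of a list whose members went both ways and which includes *Shh*, 1 gene was lower, the median was 0.46, 2 were past 1.5-fold (*Sgpp1* at 0.95 and *S1pr1* at 0.77), and 10 other pathway genes were. *S1pr1* was below the smaller limit with 1 FPKM added (0.30) and by the endothelium median (0.20). The depth of the libraries is unknown, so the precision of a value, above all that of *Sphk1*, is unknown too.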
